A study of Homo sapiens with 4 samples.

Results

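Glutamate receptors and the proteins that assemble with them were followed in enteric ganglioids, three-dimensional clusters of enteric neurons and their precursors grown from H9, an established human embryonic stem cell line. The members were chosen by gene name, with earlier results of these data known. They are the subunits of the AMPA (GRIA), kainate (GRIK), NMDA (GRIN) and delta (GRID) receptors, the metabotropic receptors (GRM), the kainate receptor partners NETO1 and NETO2, the AMPA receptor tail-binding proteins GRIP1 and GRIP2, and 6 transmembrane AMPA receptor regulatory proteins (TARPs) of the CACNG family. The rule found 36 genes among the 36601 features of the count matrices, and every one had at least 1 UMI (unique molecular identifier, a tag that marks 1 captured RNA molecule).

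AMPA, kainate and NMDA receptors are cation channels that open when glutamate binds, and each is built from several subunits. In AMPA receptors the GRIA2 subunit limits the entry of calcium, and TARPs control how the channel reaches the surface and closes. NMDA receptors need GRIN1 in every complex. Delta receptors resemble these channels but bind cerebellins, proteins secreted by presynaptic cells. Metabotropic receptors act through G proteins, group I (such as GRM5) through Gq and groups II and III through Gi or Go. In the gut, enteric neurons excite one another mainly through acetylcholine, and glutamate is one of the further transmitters described there.

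Single-nucleus RNA sequencing was performed on 4 samples, 2 of untreated control ganglioids and 2 of ganglioids that had received PP121 (2 µM, days 15 to 20 of differentiation), a small molecule that blocks more than a single receptor tyrosine kinase. All 4 samples came from the H9 line, so a single genetic background is represented, and each sample pools ganglioids. The labels number the differentiation replicates, and a control and a PP121 sample share each number. Replicate 1 of both groups carries the deposited time point day 42 and replicate 2 carries day 38, whereas the study's text gives a single day, between these, for its ganglioids. The time point, the replicate number and the differentiation therefore cannot be told apart, and each day held 1 control and 1 PP121 sample. Values of 4 samples are given below in the order control replicate 1, control replicate 2, PP121 replicate 1 and PP121 replicate 2.

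The authors annotated 4283, 3030, 4587 and 2912 nuclei with a class, with 23348045 to 34123759 UMIs per sample and a median of 6289 to 7071 UMIs per nucleus. Enteric neurons numbered 2301, 1250, 2030 and 976, and nuclei of both progenitor classes numbered 1741, 1291, 2304 and 1356. Mesenchymal nuclei followed the day, with 40 and 33 in the day 42 samples and 408 and 422 in the day 38 samples. Levels are given as CPM, the UMIs of a gene per 1000000 UMIs of that class in that sample. The capture method does not correct for transcript length, so levels are compared between classes and samples and not between genes. The 8 neuronal markers summed to 1724 to 2250 CPM in the nuclei labelled enteric neurons, against 583 to 864 CPM in the progenitor classes and 283 to 392 CPM in mesenchymal nuclei, and none of them was at 0 in neurons. The 6 mesenchymal markers summed to 12.3, 41.5, 9.56 and 48.1 CPM in enteric neurons, higher in the day 38 samples of both groups, and none of the 6 was at 0. Pairs of samples shared between 0 and 8 cell barcodes.

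Most of the members with enough UMIs for a count stood higher in enteric neurons than in progenitors. This is a description, because the classes were made by the authors from the same counts. Of the 34 members with at least 100 UMIs over neurons and progenitors, 21 were higher in all 4 neuron sums than in any of the 4 progenitor sums, against 16.6% of the 19997 genes at that depth.

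All 4 AMPA receptor subunits stood apart between neurons and progenitors. GRIA1 was measured at 269 ± 68.1 CPM in enteric neurons (SD, n = 4 samples here and for the other class means), against 13.9 ± 4.34 CPM in progenitor 1, 31.5 ± 11.5 CPM in progenitor 2 and 17.3 ± 13.5 CPM in mesenchymal nuclei. GRIA2 was at 496 ± 89.2 CPM in neurons, 101 ± 33.7 CPM in progenitor 1 and 26.4 ± 14.4 CPM in mesenchymal nuclei. GRIA3 and GRIA4 were at 79.3 ± 11.8 CPM and 309 ± 40.4 CPM in neurons, which was 4.13 and 7.04 times their level in progenitors. After every nucleus was thinned to 2000 UMIs, at least 1 UMI of an AMPA receptor subunit was present in 79.4%, 74.4%, 79.1% and 69% of neurons and in 15.6% to 21.6% of progenitors. Mesenchymal nuclei gave 15.2% to 22.5%, so the progenitor share was not above that of a non-neural class and the neuron share was far above it.

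Among kainate receptor subunits, GRIK2, GRIK3 and GRIK5 were higher in neurons than in progenitors without overlap, at 146 ± 47.7, 265 ± 61.8 and 44.7 ± 5.4 CPM. GRIK3 had the widest contrast of the 3, at 12.2 times its progenitor level, and was at 7.57 ± 6.24 CPM in mesenchymal nuclei. GRIK1 was not confined to neurons. Its 87.8 ± 66.3 CPM in neurons overlapped with its 73.6 ± 30.2 CPM in mesenchymal nuclei. GRIK4, a subunit that needs a GRIK1 to GRIK3 partner, was near 1.07 times its progenitor level in neurons, at 31.2 ± 4.56 CPM.

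NMDA receptor genes were represented unevenly. GRIN1, the obligatory subunit, had 214 UMIs in all annotated nuclei, with 3.69, 2.34, 3.62 and 1.71 CPM in neurons. GRIN2B was at 75.6 ± 32.4 CPM in neurons and 7.95 times its progenitor level, and GRIN2D was at 49.7 ± 2.74 CPM and 1.63 times that level. GRIN2A (23.1 ± 8.24 CPM) and GRIN2C (7.92 ± 2.05 CPM) overlapped between neurons and progenitors, as did GRIN3B (5.33 ± 1.88 CPM), while GRIN3A (13.1 ± 0.976 CPM) did not overlap. Within samples GRIN2A was higher in neurons than in progenitors in 4 of 4, at 2.06 times on average. GRIN2C was lower in neurons in 4 of 4, at 0.711 times.

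Among delta receptors, GRID1 was at 127 ± 42.8 CPM in neurons and 30.4 ± 9.51 CPM in progenitor 2, without overlap between neurons and progenitors. Across the 36 members, the genomic span (GENCODE 29) correlated with the CPM in neurons at a Spearman rho of 0.596, a description over genes that share the same libraries. Whether intronic reads were counted is not stated, and the part of gene length in these levels was not tested.

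The metabotropic receptors GRM2, GRM4, GRM5 and GRM7 were higher in neurons than in progenitors without overlap. GRM7 was at 306 ± 120 CPM in neurons and 130 ± 24.2 CPM in progenitor 2, and GRM5 was at 21.6 ± 9.64 CPM in neurons. GRM3 was similar in all 4 classes, with means of 126 ± 18.8, 101 ± 14.8, 99.9 ± 15.3 and 137 ± 84.6 CPM in neurons, progenitor 1, progenitor 2 and mesenchymal nuclei. GRM6, a receptor of retinal bipolar cells, had 46 UMIs in all annotated nuclei. GRM8 stood out in nuclei that the authors labelled unknown, which held 2398 of its 4639 UMIs, at 190, 180, 360 and 1009 CPM, against 29 ± 14.5 CPM in neurons. GRIK1 was also measured there, at 86.1, 103, 158 and 122 CPM. In the small epithelial class, GRIK4 was at 224, 152, 139 and 228 CPM and GRIN2A at 164, 208, 155 and 167 CPM, all above the neuron values, from 9 to 37 nuclei per sample.

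Of the auxiliary subunits, NETO1 was at 29.6 ± 5.21 CPM in neurons and 3.69 times its progenitor level, while NETO2 (89.7 ± 12.5 CPM) overlapped between the classes. GRIP1 was at 314 ± 31.9 CPM in neurons, 411 ± 43.5 CPM in progenitor 2 and 325 ± 80.7 CPM in mesenchymal nuclei, and GRIP2 was at 5.37 ± 1.01 CPM in neurons, without overlap with progenitors. Among TARPs, CACNG2 (12.3 ± 2.51 CPM) was 9.66 times and CACNG5 (4.77 ± 2.61 CPM) 5.23 times its progenitor level, and CACNG7 (53.5 ± 6.04 CPM) did not overlap either. CACNG4 (74.9 ± 10.3 CPM) and CACNG8 (18.9 ± 5.32 CPM) overlapped with progenitors although each was higher in neurons than in the progenitors of the same sample in 4 of 4 samples. CACNG3 had 78 UMIs in all annotated nuclei.

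**Figure D1:**
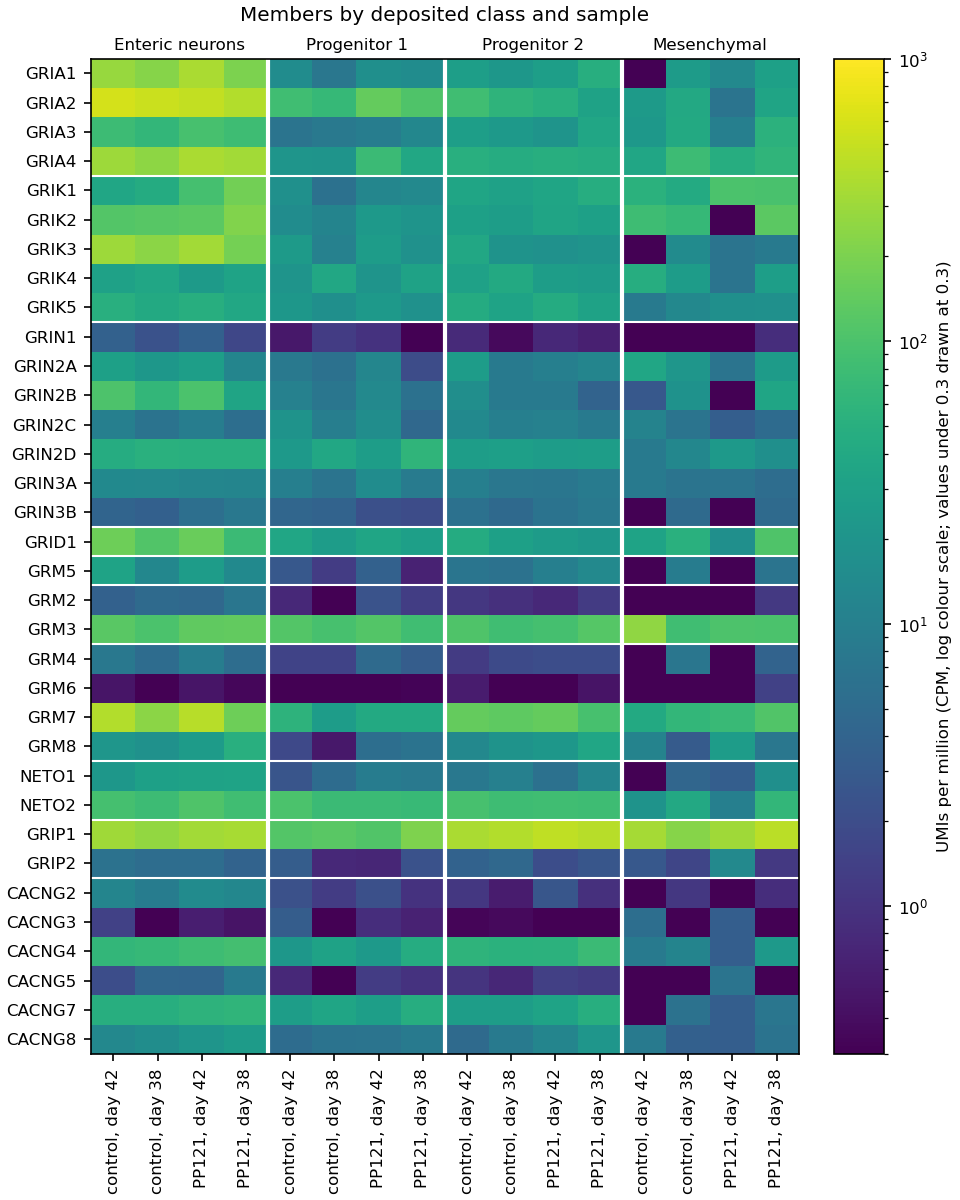
Level of the members described in enteric neurons, progenitor 1, progenitor 2 and mesenchymal nuclei, as CPM on a logarithmic colour scale, with 1 column for each of the 4 samples in each class. Brighter colours are higher levels, values under 0.3 CPM share the darkest colour, and GRIA2 in neurons is among the brightest rows, at 387 to 600 CPM.

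The first comparison asked whether glutamate receptor genes differed between PP121 and control neurons. With edgeR's quasi-likelihood test on the 4 neuron sums and no block for the replicate, 0 of 34 members tested and 0 of 21243 genes (0%) had an adjusted p under 0.05. At an unadjusted p under 0.05 there were 2549 genes and 8 members, and DESeq2 called 102 genes and 1 member, GRIK1. GRM6 and CACNG3 had too few UMIs to be tested here and in the PP121 comparisons of progenitors, nitrergic and glutamatergic neurons, together with GRIN1 in progenitors and GRIN3B in nitrergic neurons. Once the replicate (equal to the day) entered as a block, 12 of the 34 members passed, 11 higher and 1 lower with PP121, against 14.8% of all genes (7.97% higher and 6.86% lower). The median log2 fold change of the members was 0.23, against −0.01 for all genes. The block leaves 1 residual degree of freedom, and the spread it uses was mostly borrowed from the other genes (26.2 prior degrees of freedom). DESeq2 with the same block called 2 of the 34 members and 640 of 21243 genes. The p-values with the block rest mainly on spread shared over genes, and all of them concern samples of a single line. Without the block, the median log2 fold change of the members was 0.29 and 0.06 with control replicate 1 or 2 left out. It was 0.04 and 0.27 with PP121 replicate 1 or 2 left out.

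GRIK1, a low-affinity kainate receptor subunit, had the widest difference. Its level in neurons was 36.6 and 43.6 CPM in the control samples and 90.5 and 180 CPM in the PP121 samples. Both PP121 samples were above both controls, and PP121 replicate 2 was the highest by far. Within days the ratio of PP121 to control was 2.48 on day 42 and 4.14 on day 38. The log2 fold change was 1.71 ± 0.13 (SE) with the block (adjusted p = 3.96e-10) and 1.80 ± 0.33 without it (adjusted p = 0.377). Leaving out PP121 replicate 1 or 2 in the fit without the block gave 2.24 and 1.19, and leaving out control replicate 1 or 2 gave 1.65 and 1.97. Each of these fits held a single sample in 1 group, so only the size of the difference is given.

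The GRIK1 signal sat in few nuclei. After thinning to 2000 UMIs, 6.24%, 5.13%, 8.94% and 11.1% of neurons held a GRIK1 UMI (15%, 12.2%, 19% and 23.5% without thinning). In mesenchymal nuclei the thinned share was 15%, 7.65%, 15.2% and 8.1% (17.5%, 14.5%, 27.3% and 20.4% without thinning). The neuron share was above the mesenchymal share only in PP121 replicate 2, at median depths of 7210 to 8102 UMIs in neurons and 7227 to 8401 UMIs in mesenchymal nuclei. Progenitors gave 4.39%, 3.75%, 3.52% and 5.63% after thinning, below the neurons of the same sample in 4 of 4. The part of free RNA in these shares was not tested. The 10 neurons with the most GRIK1 UMIs held 10.1%, 38.1%, 28.6% and 40.5% of the total, and the highest single neuron had 12, 35, 74 and 142 UMIs. Without those 10 neurons of each sample the levels were 33.1, 27.2, 65 and 109 CPM, with both PP121 samples still above both controls.

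GRIK1 lies on the minus strand of chromosome 21 from 29536933 to 29940033 (GRCh38, GENCODE 29), where BACH1 and GRIK1-AS1 overlap it on the other strand. Whether counting used strand is not stated, and reads of a gene and its antisense partner could then not be told apart. BACH1 was measured at 94.9, 95.6, 137 and 184 CPM in neurons, also higher in both PP121 samples, with a log2 fold change of 0.77 ± 0.10 (adjusted p = 6.26e-06) with the block. GRIK1-AS1 had 24, 9, 39 and 38 UMIs (1.54 ± 0.39, adjusted p = 0.00741 with the block). Their part in the GRIK1 level was not tested.

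GRIK2, the other kainate subunit that passed, was at 114, 122, 130 and 216 CPM. The PP121 samples were higher, by little on day 42 and by 1.77 times on day 38, and the log2 fold change was 0.55 ± 0.11 (adjusted p = 0.00106 with the block and 0.409 without). GRIK3, GRIK4 and GRIK5 did not pass. NETO1, which slows the decay of kainate receptor currents, was at 22, 30.5, 32.6 and 33.4 CPM. Its groups did not overlap, although control replicate 2 was only just below the PP121 samples, and the log2 fold change was 0.40 ± 0.13 (adjusted p = 0.0415 with the block). NETO2 did not pass. Counted as UMIs, GRIK1 made up 8.03%, 10.6%, 16.7% and 30.9% of GRIK1, GRIK2 and GRIK3 together.

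AMPA receptor subunits moved in both directions. GRIA2 was at 600, 521, 476 and 387 CPM, with both PP121 samples below both controls, and fell by 0.34 ± 0.09 on the log2 scale (adjusted p = 0.00647 with the block and 0.429 without). GRIA3 was at 78.3, 65.3, 94.2 and 79.5 CPM and rose by 0.31 ± 0.10 (adjusted p = 0.0364 with the block). GRIA4 was at 306, 256, 353 and 322 CPM and rose by 0.31 ± 0.09 (adjusted p = 0.0172 with the block). In GRIA3 and GRIA4 the lower PP121 sample was only just above the higher control sample. GRIA1 did not pass, at 283, 229, 358 and 204 CPM. GRIA2 accounted for 47.4% (95% interval 46.7 to 48) and 48.6% (47.7 to 49.5) of the UMIs of the 4 AMPA subunits in the control samples, and for 37.2% (36.5 to 37.8) and 38.9% (37.9 to 40) in the PP121 samples. The PP121 shares were below the control shares on both days, and the intervals (Clopper-Pearson) cover counting error only.

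Of the 5 TARPs tested 3 passed with the block, against 14.8% of all genes. CACNG8, a partner of AMPA receptors in the hippocampus, was at 13.4, 16, 20.6 and 25.5 CPM and rose by 0.68 ± 0.15 (adjusted p = 0.00194 with the block and 0.377 without). CACNG4 was at 65.2, 67.8, 79.4 and 87.4 CPM and rose by 0.36 ± 0.10 (adjusted p = 0.0172 with the block). Both genes had their 2 PP121 values above their 2 control values, at similar ratios on both days. CACNG5 was at 2.06, 4.42, 4.28 and 8.34 CPM, where PP121 replicate 1 lay just below control replicate 2, and rose by 1.02 ± 0.26 (adjusted p = 0.00768 with the block). CACNG2 and CACNG7 did not pass, and neither did GRIP1 or GRIP2.

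Among metabotropic receptors 2 passed, both coupled to Gi. GRM8 was at 21.3, 18.3, 26.1 and 50.3 CPM and rose by 0.88 ± 0.17 (adjusted p = 0.000681 with the block and 0.377 without). Most of the difference was on day 38, at 2.75 times against 1.23 times on day 42. The 10 neurons with the most GRM8 UMIs held 37.6% to 50.2% of them, and without those nuclei the levels were 13.4, 9.24, 16.3 and 29.6 CPM. GRM3 was at 124, 101, 137 and 143 CPM and rose by 0.36 ± 0.10 (adjusted p = 0.0158 with the block). GRM5, a group I receptor, did not pass, nor did GRM2, GRM4 or GRM7.

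Of the 7 NMDA subunits 1 passed, close to the 14.8% of all genes in this fit. GRIN3B, a glycine-binding subunit, was at 4.12, 3.61, 5.82 and 7.77 CPM and rose by 0.80 ± 0.25 (adjusted p = 0.027 with the block), from 284 UMIs in the neurons of all samples. It shares its locus with TMEM259 on the other strand, which had 633, 352, 413 and 205 UMIs (−0.40 ± 0.13, adjusted p = 0.0319 with the block). GRIN2A and GRIN2B had log2 fold changes of −0.40 ± 0.16 (adjusted p = 0.0876) and −0.38 ± 0.13 (adjusted p = 0.0528), and GRID1 did not pass. Of the 34 members with at least 100 UMIs, 13 (38.2%) had both PP121 samples above both controls, against 20.1% of genes at that depth.

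The deposited boundary between neurons and progenitors bears on these counts. When nuclei of all samples were clustered together, 1821 of 2301, 900 of 1250, 1831 of 2030 and 852 of 976 deposited neurons fell into the neuron cluster, a smaller part in the controls. With neurons defined by that cluster, 4 members passed with the block, against 4.74% of all genes (3.21% higher and 1.53% lower). These were GRIK1 (1.58, adjusted p = 0.000159), GRIK2 (0.48, adjusted p = 0.0258), GRM8 (0.71, adjusted p = 0.0491) and GRIA2 (−0.34, adjusted p = 0.0269), and the other 8 kept their direction with an adjusted p of 0.0516 to 0.329.

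**Figure D2:**
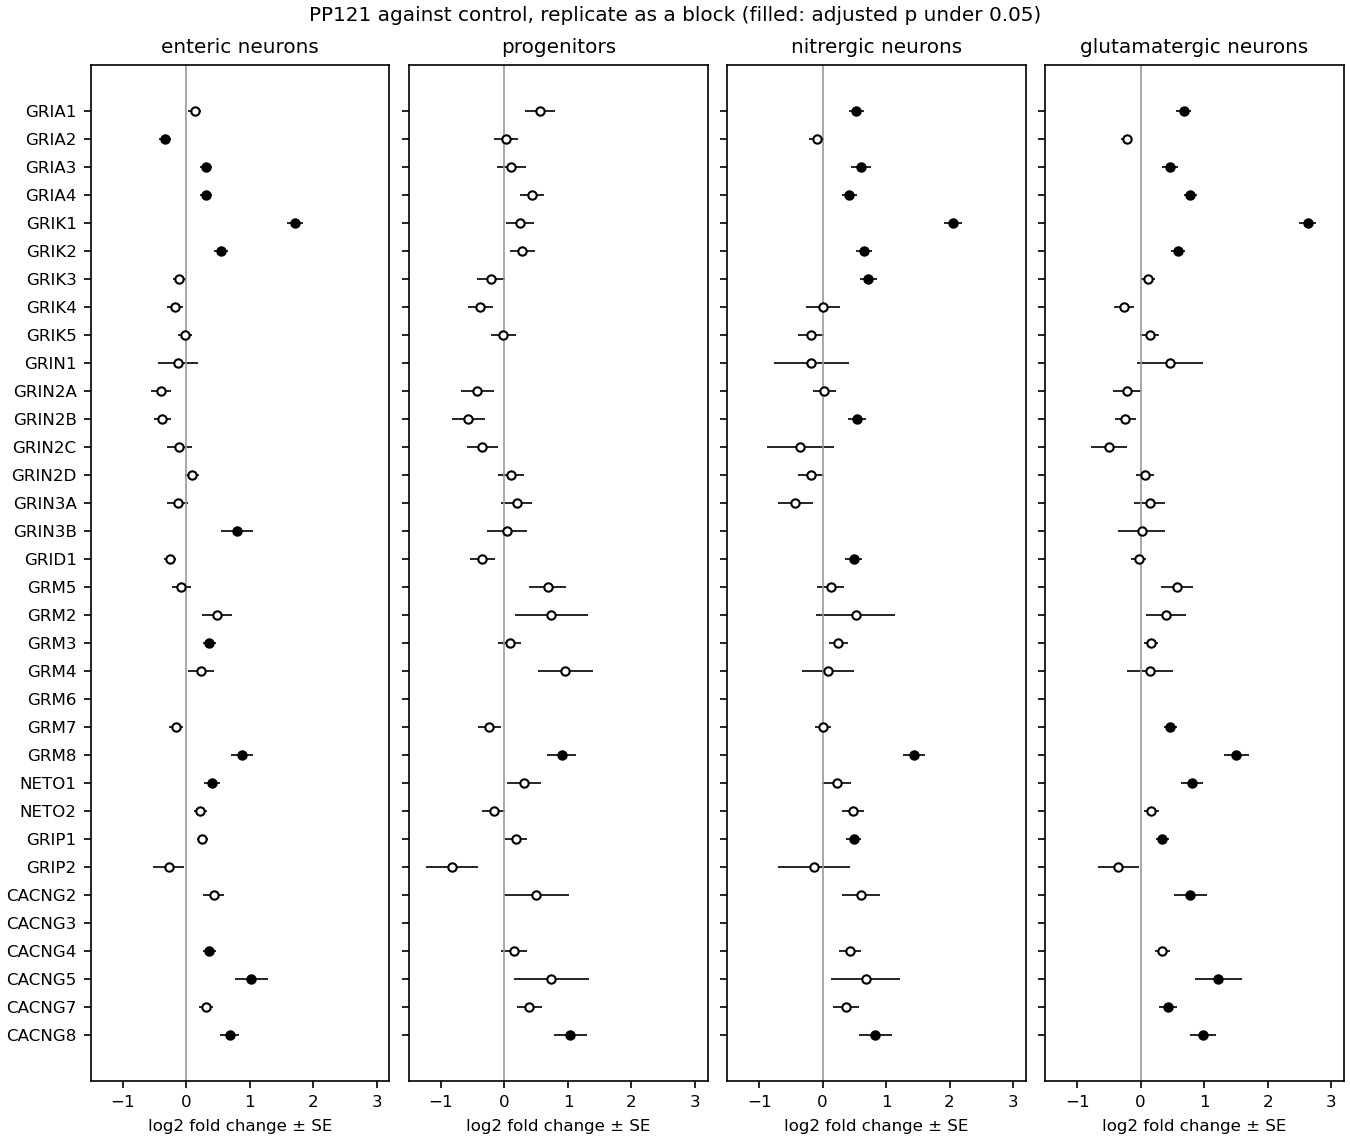
Log2 fold change of each member described and tested with PP121 against control, ± SE, in enteric neurons, progenitors, nitrergic neurons and glutamatergic neurons, from the fit with the replicate as a block. Filled points have an adjusted p under 0.05 over all genes, and GRIK1 lies farthest to the right in the 3 neuron panels, at 1.71, 2.06 and 2.63.

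In progenitors, few members differed with PP121. Without the block 0 of 33 members and 0 of 20260 genes (0%) passed edgeR's test, with 962 genes and 4 members at an unadjusted p under 0.05 and 0 members called by DESeq2. With the block 2 members passed, both higher, against 1.72% of all genes (1.16% higher). CACNG8 was at 5.12, 7.56, 9.5 and 17.3 CPM and rose by 1.04 ± 0.26 (adjusted p = 0.0225). GRM8 was at 9.62, 11.4, 14.4 and 26.7 CPM and rose by 0.90 ± 0.23 (adjusted p = 0.0277). In both genes the PP121 samples were above the controls, and PP121 replicate 2 was the highest. GRIK1 was at 29.5, 20.8, 24.7 and 36.7 CPM in progenitors, where the groups overlapped. With progenitors from the joint clusters, 5 members passed against 2.43% of all genes (1.79% higher and 0.634% lower). GRM8 and CACNG8 were again higher, and GRIN2B (−1.55, adjusted p = 6.05e-05), GRIA2 (−0.72, adjusted p = 0.0164) and GRID1 (−0.66, adjusted p = 0.0371) were lower, which with the deposited classes had −0.57, 0.02 and −0.35.

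Whether the response differed between the classes was tested as an interaction in 1 fit over both. With edgeR 0 of 35 members and 0 of 21787 genes (0%) passed, with 2123 genes and 4 members at an unadjusted p under 0.05 and 1 member called by DESeq2. GRIK1 had the smallest p, with a log2 fold change larger in neurons by 1.47 ± 0.24 (adjusted p = 0.119). GRIN3B (0.78 ± 0.31, adjusted p = 0.46) and NETO2 (0.39 ± 0.16, adjusted p = 0.471) came next. A response of GRIK1 particular to neurons was therefore not shown by this test. With control replicate 1 or 2 left out the GRIK1 difference was 1.09 and 1.79, and with PP121 replicate 1 or 2 left out it was 1.66 and 1.29. Each of these fits held a single sample of 1 treatment, so only the size of the difference is given.

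The study also gives each neuron transmitter identities, which overlap, so that a nucleus can be nitrergic and glutamatergic at once. Nitrergic neurons, which release nitric oxide and relax gut muscle, numbered 449, 230, 358 and 91. Without the block 0 of 33 members and 0 of 15239 genes (0%) passed edgeR's test for PP121, with 2131 genes and 9 members at an unadjusted p under 0.05 and 0 members called by DESeq2. With the block 12 members passed, all higher, against 10.5% of all genes (6.79% higher and 3.67% lower). Of these, 3 were AMPA subunits and 3 were kainate subunits. Without the block, the median log2 fold change of the members was 0.31 and 0.35 with control replicate 1 or 2 left out. It was 0.31 and 0.49 with PP121 replicate 1 or 2 left out.

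GRIK1 in nitrergic neurons was at 56.5, 105, 198 and 440 CPM. Both PP121 samples were above both controls, with ratios of 3.51 on day 42 and 4.21 on day 38, and the log2 fold change was 2.06 ± 0.14 (adjusted p = 3.80e-43 with the block and 0.126 without). In this block fit the prior degrees of freedom were infinite, so every p rests on the spread shared by all genes and none on the gene's own. DESeq2 with the block called 3 of 33 members and 160 of 15239 genes. GRM8 was at 40.9, 57.9, 75 and 203 CPM and rose by 1.44 ± 0.17. GRIK3 was at 267, 203, 322 and 399 CPM and rose by 0.72 ± 0.13. In these genes the groups did not overlap. GRIK2 rose by 0.65, GRIA3 by 0.61, GRIA1 by 0.53, GRIN2B by 0.54, GRIP1 by 0.49, GRID1 by 0.49, GRIA4 by 0.42 and CACNG8 by 0.83, with adjusted p-values of 4.57e-05 to 0.02 with the block. Among these 8, GRIA1, GRIN2B and GRID1 overlapped between the groups. GRIN2B rested on single samples, since without the block it was at −0.00195 without PP121 replicate 1 and at 1.26 without control replicate 1. In 12 of 27 members with at least 100 UMIs (44.4%) both PP121 samples were above both controls, against 16.8% of genes at that depth.

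Glutamatergic neurons, which carry glutamate into vesicles, numbered 571, 546, 683 and 605. GRIK1 passed here without the block, as 1 of 34 members, against 4 of 18191 genes (0.022%). Its level was 29.4, 29.7, 130 and 227 CPM. The control samples were alike, the PP121 samples were 4.44 and 7.64 times the control of the same day, and the log2 fold change was 2.67 ± 0.27 (adjusted p = 0.0357) without the block and 2.63 ± 0.14 (adjusted p = 2.06e-21) with it. In the fit without the block, GRIK1 was at 2.63 and 2.73 with control replicate 1 or 2 left out. With PP121 replicate 1 or 2 left out it was at 3.03 and 2.19. Each of these fits held a single sample in 1 group, so only the size of the difference is given. With doublet candidates left out GRIK1 was at 2.66 (adjusted p = 0.0646) without the block and 2.61 (0.000774) with it, from edgeR's quasi-likelihood test.

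With the block 13 members passed in glutamatergic neurons, all higher, against 11.6% of all genes (7.22% higher). The count was 6 of 33 with doublet candidates left out (858 of 17789 genes) and 3 of 34 with DESeq2 and the block (335 of 18191 genes). GRIA4 was at 184, 197, 336 and 288 CPM and rose by 0.78 ± 0.10 (adjusted p = 6.32e-08). GRIA1 was at 140, 147, 277 and 172 CPM and rose by 0.68 ± 0.12 (adjusted p = 2.10e-05). GRM8 was at 8.04, 17.1, 31.5 and 35.4 CPM and rose by 1.51 ± 0.20 (adjusted p = 1.29e-07). The 2 groups did not overlap in these genes. TARPs passed in 4 of 5 cases, CACNG8 (0.98), CACNG5 (1.22), CACNG2 (0.78) and CACNG7 (0.43). NETO1 rose by 0.81, GRIK2 by 0.59, GRM7 by 0.47, GRIA3 by 0.46 and GRIP1 by 0.34. No NMDA subunit (0 of 7) passed, and GRID1 did not pass. The share of GRIA2 among AMPA subunit UMIs was 59.9%, 53.1%, 40.3% and 41%, lower in both PP121 samples. Both PP121 samples lay below both controls in this share in nitrergic (33.9%, 40.7%, 26.7% and 30.1%), cholinergic, GABAergic and catecholaminergic neurons too, but not in serotonergic neurons (35.3%, 36.3%, 34.5% and 39.5%).

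The nitrergic and glutamatergic nuclei are part of the enteric neurons and overlap with each other, so their results are not separate observations. Of the 2285, 1234, 1887 and 915 neurons with identity calls, 571, 546, 683 and 605 were glutamatergic, a larger part with PP121 on each day. The 449, 230, 358 and 91 nitrergic neurons were the smallest part in PP121 replicate 2. How far this mix entered the PP121 differences of all enteric neurons was not tested. Over the 6 identities, GRIK1, CACNG4 and CACNG8 had both PP121 samples above both controls in 6 of 6. Of all genes with at least 100 UMIs, 16.8% had this order in nitrergic and 19.1% in glutamatergic neurons. The share with this order in 6 of 6 was not counted, and the identities hold nuclei in common. GRIK1 varied widely between the identities. It was at 33.4, 62.5, 78.1 and 814 CPM in cholinergic neurons, where PP121 replicate 2 held 93 nuclei, and at 52.5, 44.2, 65.3 and 269 CPM in serotonergic neurons. In GABAergic neurons it was at 30.5, 21.8, 53.4 and 40.8 CPM and in catecholaminergic neurons at 21.1, 25.9, 61.9 and 164 CPM. The cholinergic, serotonergic and catecholaminergic values of PP121 replicate 2 stood far above those of the other samples, and the GABAergic value did not.

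**Figure D3:**
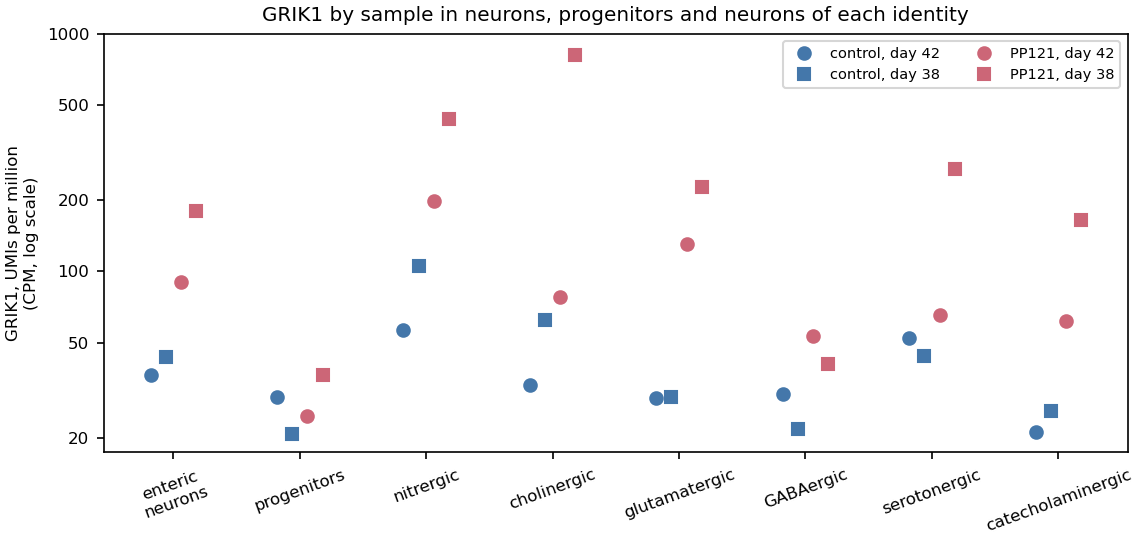
GRIK1 level in CPM (log scale) in each of the 4 samples, in enteric neurons, progenitors and neurons of each of the 6 identities. Both PP121 samples lie above both controls in every group of neurons and overlap with them in progenitors, and the highest value is 814 CPM in cholinergic neurons of PP121 replicate 2.

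The next comparisons set neurons of each identity against the enteric neurons without it in the same samples, with the sample as a block. The deposited identities rest on imputed values and a gene score of the study, so they are not fully independent of the members, and a second definition asked for at least 1 UMI of the identity gene instead. By that second definition nitrergic neurons had 5 of 34 members higher and 1 lower (1.03% of all genes called). Glutamatergic neurons had 12 higher by it (8.09% of all genes called). With the deposited identities, nitrergic neurons had more members higher than any of the other 5. Of 34 members 17 were higher and 0 lower, against 11.7% of all genes (7.43% higher and 4.26% lower). GRIN2A, an NMDA subunit, was at 77.5, 58.9, 80.5 and 46.4 CPM in nitrergic and 19, 14.4, 17.1 and 8.75 CPM in other neurons, higher in 4 of 4 samples (log2 difference 2.20 ± 0.12, adjusted p = 3.74e-07). GRM8 was at 40.9, 57.9, 75 and 203 CPM against 16.3, 8.97, 12.9 and 31.2 CPM (2.35 ± 0.20, adjusted p = 6.06e-06). GRIA4 was at 587, 455, 689 and 587 CPM against 238, 216, 287 and 304 CPM (1.20 ± 0.09, adjusted p = 1.73e-06). Both of these were also higher in 4 of 4 samples.

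GRIA1 (1.17 ± 0.12), GRM5 (1.49 ± 0.18), GRM7 (1.12 ± 0.14) and GRIP1 (0.69 ± 0.09) were likewise higher in nitrergic neurons in 4 of 4 samples. GRIK1 was higher too with the deposited identity (1.48 ± 0.13, adjusted p = 7.11e-06). With neurons that held a NOS1 UMI (52, 30, 42 and 20 nuclei) in place of the deposited identity, GRIN2A (1.41, adjusted p = 9.98e-06), GRM8 (1.24, adjusted p = 0.000208) and GRIP1 (0.60, adjusted p = 0.00285) remained higher. GRIK1 turned to −0.96 (adjusted p = 0.00809), GRM7 to −0.12 (adjusted p = 0.958), and GRIA1, GRIA4 and GRM5 no longer passed. By that definition 6 members passed, against 1.03% of all genes.

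Glutamatergic neurons showed the opposite pattern with the deposited identity, with 14 of 34 members lower and 1 higher, against 14.9% of all genes (7.45% lower). GRIN2B was at 54.1, 29.3, 50.5 and 19.4 CPM in glutamatergic and 122, 102, 143 and 75.5 CPM in other neurons, lower in 4 of 4 samples (−1.57 ± 0.11, adjusted p = 1.86e-06). GRM7 (−1.22 ± 0.14), GRIA1 (−0.94 ± 0.10), GRIN2A (−0.91 ± 0.10), GRIK3 (−0.90 ± 0.09), GRID1 (−0.87 ± 0.07), GRIA3 (−0.67 ± 0.07) and GRIA4 (−0.65 ± 0.09) were also lower in 4 of 4 samples. This direction depended on the definition. With identity from UMIs 12 of 34 members were higher and 2 lower, against 8.09% of all genes (5.08% higher and 3.01% lower). With neurons that held an UMI of SLC17A6, the vesicular glutamate transporter, GRIK3 remained lower (−0.52, adjusted p = 0.0117), while the other 7 turned positive, among them GRIN2A at 1.18 (adjusted p = 4.65e-05) and GRIA4 at 0.84 (adjusted p = 8.72e-06). Nuclei with an SLC17A6 UMI had median depths of 8685 to 9741 UMIs, against 6929.5 to 7614 UMIs in the other neurons, and a gap of this kind was also present for nuclei with a UMI of GAD1 or GAD2 (8486 to 9572 against 6263.5 to 7661 UMIs).

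GABAergic neurons had 9 members higher and 4 lower of 35, against 7.85% of all genes. GRIK3 was at 407, 513, 545 and 534 CPM against 209, 141, 148 and 116 CPM in other neurons (1.80 ± 0.16, adjusted p = 6.35e-05). GRIN2B (1.62 ± 0.17), GRIA1 (1.40 ± 0.12), GRM7 (1.04 ± 0.07), GRIA3 (0.90 ± 0.13), GRID1 (0.82 ± 0.08) and GRIP1 (0.51 ± 0.07) were higher and GRIK2 (−0.94 ± 0.12) was lower, each in 4 of 4 samples. All 8 kept their direction and passed with neurons that held a UMI of GAD1 or GAD2, the enzymes that make GABA, with adjusted p-values of 1.29e-05 to 0.0019.

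Cholinergic neurons, the main excitatory neurons of the gut, had 8 members higher and 3 lower of 35, against 11.5% of all genes (5.88% higher and 5.65% lower). GRIK3 was at 478, 535, 608 and 519 CPM against 219, 170, 192 and 153 CPM (1.62 ± 0.09, adjusted p = 1.68e-07), and GRIA3 at 109, 128, 158 and 107 CPM against 63.2, 49.1, 65.8 and 76.2 CPM (1.08 ± 0.12, adjusted p = 5.29e-05). Both were higher in 4 of 4 samples, as were GRM7 (0.78 ± 0.07) and CACNG4 (0.33 ± 0.08), and GRIN3A was lower in 4 of 4 (−0.79 ± 0.16). GRIA1 (0.56 ± 0.14) and GRIA2 (0.31 ± 0.08) passed with 1 sample each against the direction. With neurons that held a CHAT UMI, GRIK3 (1.17) and GRIA3 (0.68) passed, and GRM7, CACNG4, GRIN3A, GRIA1 and GRIA2 did not. Without control replicate 1 the count of members that passed was 6 in place of 11, and without control replicate 2 or PP121 replicate 1 it was 5.

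Serotonergic neurons had 8 members higher and 1 lower of 34, against 10.7% of all genes. GRM3 was at 184, 164, 185 and 185 CPM against 102, 83.9, 108 and 131 CPM in other neurons (0.76 ± 0.10, adjusted p = 0.00364), and passed with a TPH2 UMI as the definition as well (0.74, adjusted p = 0.00612). GRM7 (0.96 ± 0.18), GRIN2B (0.73 ± 0.14), GRID1 (0.48 ± 0.10), GRIA3 (0.44 ± 0.11), GRIK3 (0.42 ± 0.10) and GRIP1 (0.39 ± 0.11) were higher and GRIK4 (−0.70 ± 0.11) was lower with the deposited identity, each in 4 of 4 samples. By the TPH2 definition, which held 62, 35, 16 and 9 nuclei, none of these 7 passed, and GRIP1 alone among them kept its sign. In all, 1 of 35 members was higher and 4 were lower by that definition, against 1.01% of all genes (0.435% higher and 0.573% lower). Without control replicate 1, 1 member passed in place of 9, and without control replicate 2 or PP121 replicate 1 the counts were 6 and 5.

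Catecholaminergic neurons had 5 members higher and 3 lower of 34, against 4.8% of all genes. GRIK4 was at 46.7, 53.8, 34.2 and 46.5 CPM against 27.3, 26.1, 20 and 22.4 CPM (0.90 ± 0.10, adjusted p = 0.000408). CACNG5 (1.19 ± 0.24), NETO1 (0.87 ± 0.17), GRIN2D (0.48 ± 0.11) and GRIA2 (0.40 ± 0.08) were higher, and GRIK1 (−0.76 ± 0.11), GRIP1 (−0.44 ± 0.08) and GRIA3 (−0.36 ± 0.09) were lower, each in 4 of 4 samples. By a TH UMI, GRIP1 passed (−0.36, adjusted p = 0.0291) and the other 7 did not, with the same signs. Without control replicate 2 or PP121 replicate 1, 3 members passed.

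**Figure D4:**
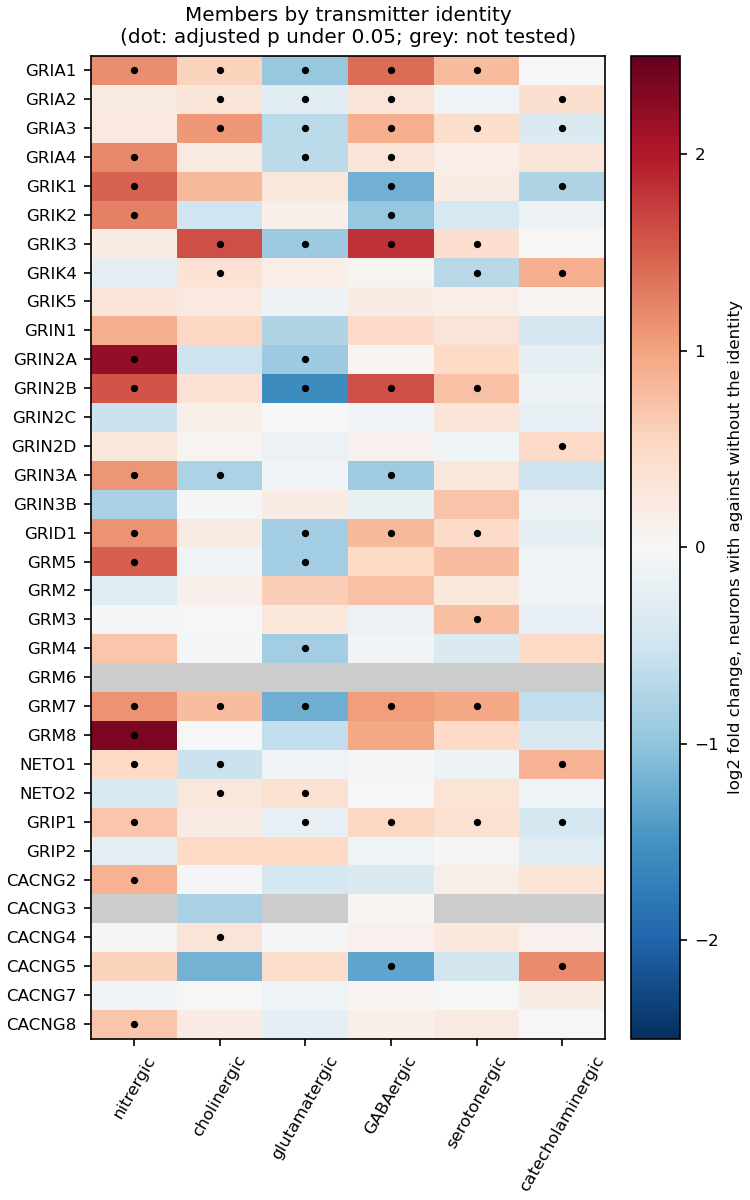
Log2 difference of each member described between neurons of a deposited transmitter identity and the enteric neurons without it, as colour, with a dot where the adjusted p is under 0.05 and grey where the gene was not tested. Red is higher and blue lower with the identity, and among cells with a dot the nitrergic column holds red ones, with GRM8 at 2.35, and the glutamatergic column mainly blue ones, with GRIN2B at −1.57.

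The last comparison set day 42 against day 38, with treatment as a covariate, in which the day cannot be told apart from the differentiation. In enteric neurons 12 of 34 members passed, 9 higher and 3 lower on day 42, against 9.49% of all genes (3.68% higher and 5.81% lower). GRM7 was at 394 and 420 CPM in the day 42 samples and 244 and 168 CPM in the day 38 samples, in the order control and PP121 (log2 difference 0.94 ± 0.11, adjusted p = 5.12e-07). GRIN2B was at 103 and 100 CPM on day 42 and 64.3 and 34.7 CPM on day 38 (1.02 ± 0.13, adjusted p = 5.12e-06). GRM5 was at 32.7 and 26.7 CPM on day 42 and 12.9 and 14.3 CPM on day 38 (1.07 ± 0.15, adjusted p = 1.42e-05). In all 3 genes both day 42 samples were above both day 38 samples.

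GRID1 (0.77 ± 0.11), GRIA1 (0.50 ± 0.10), GRIK3 (0.49 ± 0.10) and GRIN2A (0.75 ± 0.16) were also higher on day 42, again without overlap. CACNG5 was lower on day 42 without overlap (−1.08 ± 0.26). GRIK1 (−0.71 ± 0.13) and GRIK2 (−0.48 ± 0.11) were lower in the fit, but their days overlapped. GRIK1 turned to 0.51 without PP121 replicate 2, in a fit without the treatment term. Day and treatment were mixed there, since the samples left were at 36.6 and 90.5 CPM on day 42 and 43.6 CPM (control) on day 38. The mesenchymal marker sum in neurons was higher in both day 38 samples, as given above, and its part in the differences by day was not tested. The mix of identities followed the day too. In the order of samples used above, 571, 546, 683 and 605 of 2285, 1234, 1887 and 915 neurons with identity calls were glutamatergic. This was a larger part on day 38. GABAergic neurons numbered 1032, 329, 858 and 158, a smaller part on day 38. The part of this mix in the differences by day was not tested. With neurons from the joint clusters 9 members passed, against 5.22% of all genes (1.78% higher and 3.43% lower), and GRIA1 and GRIN2A did not. Without the treatment term, 0 of 34 members and 0 of 21243 genes passed with all 4 samples. The fits with 1 sample left out lacked this term too, so they cannot show the part of a single sample.

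In progenitors 1 of 33 members passed between the days, against 2.99% of all genes. GRIN2B was at 14.7 and 10.8 CPM on day 42 and 7.88 and 4.73 CPM on day 38 (0.92 ± 0.26, adjusted p = 0.0384). Both day 42 values were above both day 38 values, and DESeq2 called 0 members. With progenitors from the joint clusters 4 members passed, 2 higher and 2 lower, against 4.11% of all genes (1.88% higher and 2.23% lower). Without the treatment term 0 of 33 members passed with all 4 samples. The progenitor fits with 1 sample left out lacked this term too, so they cannot show the part of a single sample.

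**Figure D5:**
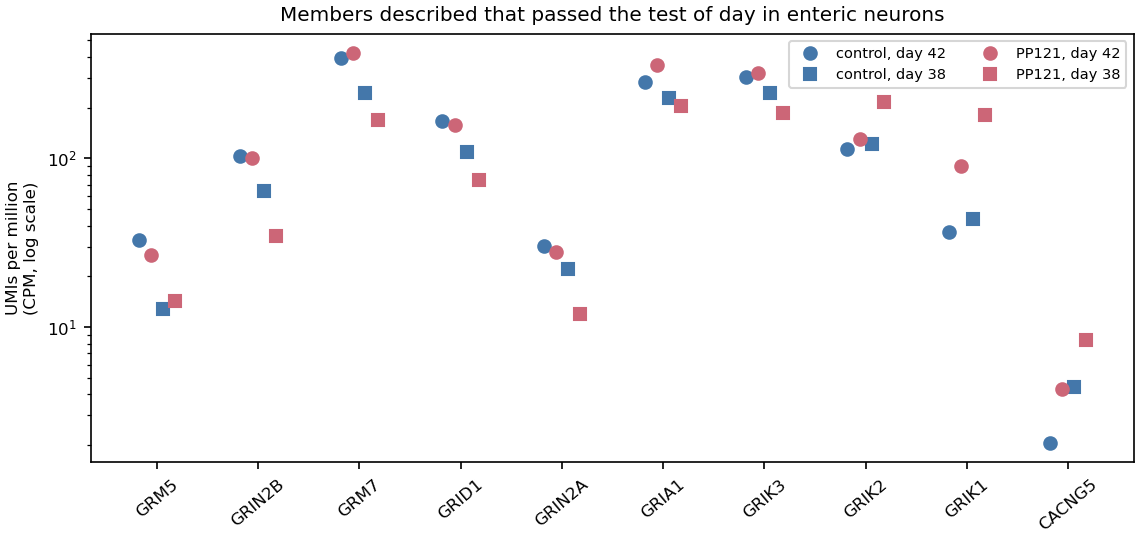
Level in CPM (log scale) in the enteric neurons of each sample for members described that had an adjusted p under 0.05 between day 42 and day 38. GRM5, GRIN2B, GRM7, GRID1, GRIN2A, GRIA1 and GRIK3 lie higher in both day 42 samples, and GRIK1 and GRIK2 are highest in PP121 replicate 2 of day 38, at 180 and 216 CPM.

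Other genes of glutamate transmission were counted from lists of 42 genes, of which 40 were tested in neurons. With PP121, 0 of the 40 passed without the block and 8 passed with it, 5 higher and 3 lower, against the 14.8% of all genes given above. SLC17A6, the vesicular glutamate transporter, rose by 0.92 ± 0.13 (adjusted p = 1.83e-05), and CBLN1, a cerebellin that binds delta receptors, rose by 1.17 ± 0.34 (adjusted p = 0.0182). SLC17A6 also marked glutamatergic neurons in the second definition of identity. Neurons with the deposited glutamatergic identity were a larger part with PP121 on each day, as given above. Their part in the SLC17A6 difference was not tested. DLGAP1 (0.56 ± 0.09) and the AMPA receptor partner SHISA6 (0.35 ± 0.10) rose, as did the uptake transporter SLC1A2 (0.29 ± 0.10). DLGAP2, a scaffold protein of the same family as DLGAP1, fell by 0.93 ± 0.11, and the glutamate-metabolising enzyme GLUD1 fell by 0.43 ± 0.11. By list, 4 of 9 genes of glutamate release and uptake, 1 of 14 other AMPA receptor partners, 1 of 2 cerebellins and 2 of 15 scaffold genes had passed.

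In nitrergic neurons 5 of these 33 tested genes were higher and 1 lower with PP121, against 10.5% of all genes, among them SLC17A6 (1.06 ± 0.19) and SHISA6 (0.92 ± 0.15), and in glutamatergic neurons 7 of 39 were higher and 4 lower, against 11.6% of all genes, among them SLC17A6 (0.89 ± 0.15), SHISA6 (0.74 ± 0.11) and SLC17A8 (−1.24 ± 0.40). In progenitors 1 of 38 passed, against 1.72% of all genes, SLC1A3, a glial glutamate transporter, which fell by 0.86 ± 0.17 (adjusted p = 0.00249). All of these are with the block, and none passed without it. Between days, 3 of 40 genes were higher and 5 lower on day 42 in neurons, against 9.49% of all genes, with DLGAP2 at 1.02 ± 0.11, CBLN1 at −1.70 ± 0.33 and SLC17A6 at −0.84 ± 0.13.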

How the data were processed

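Nuclei of 4 ganglioid samples were profiled by single-nucleus RNA-seq. The authors deposited raw UMI counts per gene and nucleus with tables of class, identities and time point. These also hold the percent of mitochondrial and ribosomal UMIs per nucleus, which the authors computed with Seurat and which entered no test. The submitters' processing notes name Cell Ranger, Seurat 4.0.4 and GRCh38, whereas the study's methods name kallisto and bustools; which made these counts, and whether introns or strand were used, is not stated. Classes come from the authors' clustering and identities from imputed values and a gene score. Groups and replicate numbers follow the sample labels. A deposited sample column gives the same groups, but the replicate numbers of the control samples are swapped in it. The replicate block pairs samples by the number in the labels, which matches the deposited time point. Nuclei without an annotated class were left out.

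Counts were summed per sample and class and tested with edgeR 4.0.16 (R 4.3.3; TMM, filterByExpr, quasi-likelihood, Benjamini-Hochberg over all genes, threshold 0.05); DESeq2 1.42.0 was an alternative. Identity comparisons had the sample as a block. In the PP121 comparisons the replicate number marks a shared time point, and same-numbered samples deviated together (correlation 0.532 over all annotated nuclei, 0.421 in neurons, 0.284 in progenitors, 0.208 in nitrergic and 0.285 in glutamatergic neurons), so the fit with the replicate block is given beside the main fit. Shares used nuclei thinned to 2000 UMIs, with Clopper-Pearson intervals at 95%. Positions are from GENCODE 29. A joint clustering of all samples (scanpy 1.11.5; 2000 variable genes, 30 components, 15 neighbours, resolution 0.2) gave alternative classes. Scrublet's own threshold marked almost no nucleus, so an alternative left out the 6% with the highest score, and doublets were otherwise kept.

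Some genes are not reported here, although counts run over the whole set. The text gives fold changes for members past the threshold in either fit, or for the 3 with the smallest p where none passed, and for up to 8 per identity. The members and lists were chosen with earlier results of these data known. On simulated counts for neurons, the test without the block recovered 60 of 100 genes changed 2-fold and 97 of 100 changed 4-fold. With the block it recovered 66 and 90, and false calls numbered 6 without and 10 with the block. The simulation set the same spread for every gene and no effect of the day. Same-numbered samples of neurons deviated together in the data (correlation 0.421), so this recovery does not measure the power there.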

Additional observations from a re-analysis of the deposited data

Results flagged for a closer look

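Nuclei with no annotated class entered none of the comparisons. Of the 12 members called in enteric neurons with the replicate block, 7 had both PP121 samples above both control samples in those nuclei as well. The same order was present for 25.8% of the 16754 genes with at least 100 UMIs in those nuclei, and 11 of the 12 had been called higher in neurons of these libraries. In the same order of samples, GRIK1 was at 30.6, 29.5, 51.8 and 155 CPM, GRIK2 at 60.6, 60.7, 94.3 and 120 CPM and GRIA4 at 167, 133, 224 and 173 CPM. GRM8 was at 11.4, 12.3, 38.9 and 33.7 CPM and NETO1 at 12.5, 18.8, 20.6 and 24.8 CPM. CACNG8 was at 10.3, 8.66, 14.9 and 19.1 CPM and CACNG4 at 46.5, 48.7, 52.2 and 61.3 CPM. The other 5 (GRIA2, GRIA3, GRM3, GRIN3B and CACNG5) did not have this order. These nuclei came from the same ganglioids and libraries, so they are not a second set of samples, and no test was run on them.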

How the results depend on the processing

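Counts below are members with an adjusted p under 0.05. The count over all genes moved with the settings too, for PP121 in enteric neurons from 0 to 3152 of 21243 with the replicate block. It was 2950 of 20758 there with doublet candidates left out and the block. In nitrergic neurons it was 1594 of 15239 with the block and 160 with DESeq2 and the block. It was 752 of 28242 there without the filter, and 1008 of 14930 without doublet candidates and with the block. A member count below without such a number is not by itself a result about the members. For PP121 in enteric neurons the count of 0 became 12 with the replicate block, 1 with DESeq2, 2 with DESeq2 and the block, 1 without the filter on low counts, 12 with doublet candidates left out and the block, 4 with joint classes and the block, and 0 to 9 with 1 sample left out. In progenitors the 0 became 2 with the replicate block, 2 without the filter, 2 without doublet candidates and with the block, 5 with joint classes and the block, and 0 to 1 with 1 sample left out. In nitrergic neurons the 0 became 12 with the block, 3 with DESeq2 and the block, 6 without the filter, 7 without doublet candidates and with the block, and 1 to 6 with 1 sample left out. In glutamatergic neurons the 1 became 13 with the block, 3 with DESeq2, 3 with DESeq2 and the block, 3 without the filter, 0 without doublet candidates, 6 with these left out and the block, and 0 to 7 with 1 sample left out. For the interaction the 0 became 1 with DESeq2, 1 without the filter and 0 to 2 with 1 sample left out. By day, the 12 in neurons became 0 without the treatment term and 7 with DESeq2. In progenitors the 1 became 0 without the treatment term, 0 with DESeq2, 2 without the filter, 2 without doublet candidates and 4 with joint classes. The day fits with 1 sample left out had no treatment term, so day and treatment were mixed in them. Without the sample block, the identity counts became 11 (nitrergic, from 17), 2 (cholinergic, from 11), 2 (glutamatergic, from 15), 6 (GABAergic, from 13), 0 (serotonergic, from 9) and 0 (catecholaminergic, from 8). With identity from UMIs they were 6 nitrergic, 3 cholinergic, 14 glutamatergic (12 higher and 2 lower, from 1 and 14), 11 GABAergic, 5 serotonergic (1 higher and 4 lower, from 8 and 1) and 2 catecholaminergic. The cholinergic count was 7 with DESeq2 and 5 with a minimum of 10 counts. The glutamatergic and serotonergic counts were 6 and 3 in PP121 samples alone, and the catecholaminergic count was 4 in control samples alone. Without the filter the serotonergic count was 15 and the catecholaminergic count 13. With 1 sample left out the ranges were 15 to 20, 5 to 11, 11 to 15, 9 to 14, 1 to 13 and 3 to 8 in the order of identities above. Signs turned in 17 of 1188 gene alternatives. GRIN2B in nitrergic neurons (PP121) ranged from −0.00195 (without PP121 replicate 1) to 1.26 (without control replicate 1). GRIK1 by day ranged from −1.70 (without PP121 replicate 1) to 0.51 (without PP121 replicate 2), in fits that also lacked the treatment term. With identity from UMIs, nitrergic GRIK1 and GRM7 came to −0.96 and −0.12, glutamatergic GRIN2B, GRID1, GRIA1, GRIA3, GRIN2A, GRM7 and GRIA4 to 0.26, 0.18, 0.47, 0.15, 1.18, 0.24 and 0.84, and serotonergic GRIK4, GRM7, GRIN2B, GRID1, GRIK3 and GRIA3 to 0.18, −0.58, −0.37, −0.16, −0.37 and −0.48. The cause of these changes was not tested. Where 1 sample was left out of 2, the lone sample was assumed to vary like the other group. With 2 samples a group and 1 residual degree of freedom under the block, calls rest on borrowed spread. GRM6 had too few UMIs for any comparison, CACNG3 for all but the interaction and the cholinergic and GABAergic identities, and GRIN1 for those within progenitors.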
